A study of Mus musculus with 15 samples.

Results

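The myogenic regulatory factors are the genes Myf5, Myf6, Myod1 and Myog, and they were described here by the H3K27ac peaks around them in a mouse tumor of fusion-positive rhabdomyosarcoma (FP-RMS). A peak was taken when it overlapped the RefSeq span of a member gene in mm10 or 200 kb either side. This gave 142 of the 122375 listed peaks, with 96 at the neighboring genes Myf5 and Myf6, 13 at Myod1 and 33 at Myog. The tumor, of the model called MCP, carried Myf6-Cre together with the alleles Cdkn2a(Flox/Flox) and Pax(3P3F/P3F) and the reporter R26-tdTom. Cre from Myf6-Cre switched on the PAX3-FOXO1 fusion (P3F) from the Pax3 locus, removed Cdkn2a and turned on the tdTomato marker. Myf6, the gene whose locus drives Cre in this model, is thus itself a member, and the list does not tell the alleles of a gene apart. The comparison model of the study, TCP, carries Tek-Cre with the same other alleles. The series holds 6 MCP and 3 TCP H3K27ac libraries and 3 MCP and 3 TCP IgG libraries, and the list used here belongs to MCP H3K27ac replicate 5. There are therefore no replicates, no test between groups was possible, and the TCP libraries were not used here.

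CUT&RUN cuts out DNA beside an antibody with a tethered nuclease, and H3K27ac is a histone mark found at active promoters and enhancers. An IgG antibody, which has no histone target, supplies the background. The fold of a peak is the caller's enrichment at the summit over the IgG background, which has a lowest value shared across the list. The caller adds the same constant to signal and background, so the fold is below the plain ratio where background is low. Myogenic regulatory factors are basic helix-loop-helix proteins that bind E-boxes (CANNTG) together with E proteins. Myf5 and Myod1 commit progenitors to the muscle lineage, Myog drives terminal differentiation, and Myf6 (also called Mrf4) acts in both embryonic commitment and mature fibers. Myf5 and Myf6 lie side by side in the same orientation, and a long series of enhancers upstream of the pair is known to drive them at different sites and times in the embryo. Myod1 is known for a core enhancer and a distal regulatory region upstream, whereas Myog is known for control from its proximal promoter.

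The sequences under the strongest summits show what DNA lay at the center of these peaks. For the 4 peaks of highest fold upstream of Myf6 and the 2 of highest fold upstream of Myod1, 300 bp centered on the summit are given on the plus strand of mm10, and for the peak nearest to Myod1 the whole peak. Peaks are numbered along the chromosome within each locus, and capitals mark E-boxes. The windows are chr10:107542991-107543290, chr10:107568421-107568720, chr10:107583572-107583871 and chr10:107613696-107613995, which lie in introns of Ptprq, and chr7:46337761-46338060, chr7:46341261-46341560 and chr7:46350366-46350463, which are intergenic.
Myf5-Myf6 peak 37: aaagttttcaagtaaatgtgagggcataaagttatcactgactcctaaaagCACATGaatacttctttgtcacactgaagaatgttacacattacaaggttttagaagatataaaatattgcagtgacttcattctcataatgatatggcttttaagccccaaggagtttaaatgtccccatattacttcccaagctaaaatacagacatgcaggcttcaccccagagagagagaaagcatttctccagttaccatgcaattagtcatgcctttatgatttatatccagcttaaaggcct
Myf5-Myf6 peak 42: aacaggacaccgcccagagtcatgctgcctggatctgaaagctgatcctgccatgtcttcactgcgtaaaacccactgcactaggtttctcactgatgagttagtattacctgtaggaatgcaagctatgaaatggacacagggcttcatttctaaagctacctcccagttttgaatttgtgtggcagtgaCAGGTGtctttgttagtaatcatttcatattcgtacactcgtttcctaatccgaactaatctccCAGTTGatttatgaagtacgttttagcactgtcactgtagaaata
Myf5-Myf6 peak 48: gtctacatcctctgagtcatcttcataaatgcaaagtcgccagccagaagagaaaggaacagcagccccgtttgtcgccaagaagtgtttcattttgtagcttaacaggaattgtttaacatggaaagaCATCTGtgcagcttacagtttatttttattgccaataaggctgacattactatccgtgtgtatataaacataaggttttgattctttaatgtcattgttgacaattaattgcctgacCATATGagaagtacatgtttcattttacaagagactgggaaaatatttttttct
Myf5-Myf6 peak 67: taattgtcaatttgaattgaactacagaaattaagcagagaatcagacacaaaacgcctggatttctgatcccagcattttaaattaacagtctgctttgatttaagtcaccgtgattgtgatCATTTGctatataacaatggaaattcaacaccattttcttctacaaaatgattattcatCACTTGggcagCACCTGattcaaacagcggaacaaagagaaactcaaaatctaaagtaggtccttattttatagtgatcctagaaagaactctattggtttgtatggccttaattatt
Myod1 peak 5: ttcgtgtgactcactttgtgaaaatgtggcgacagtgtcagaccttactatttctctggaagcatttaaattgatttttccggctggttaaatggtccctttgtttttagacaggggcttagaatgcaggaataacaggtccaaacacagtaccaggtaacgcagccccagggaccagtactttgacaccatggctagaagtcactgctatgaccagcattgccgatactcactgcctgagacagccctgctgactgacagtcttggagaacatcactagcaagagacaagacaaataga
Myod1 peak 9: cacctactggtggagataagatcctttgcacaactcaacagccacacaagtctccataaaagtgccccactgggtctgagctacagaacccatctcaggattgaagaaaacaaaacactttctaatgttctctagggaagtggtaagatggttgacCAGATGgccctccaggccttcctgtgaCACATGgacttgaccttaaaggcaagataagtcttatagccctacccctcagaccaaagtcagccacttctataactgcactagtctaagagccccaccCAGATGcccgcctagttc
Myod1 peak 13: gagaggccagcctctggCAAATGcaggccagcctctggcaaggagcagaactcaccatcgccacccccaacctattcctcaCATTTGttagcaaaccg
Peaks 42 and 67 upstream of Myf6 each held 1 E-box of the type preferred by MyoD (CAGCTG or CACCTG, read on both strands), and peaks 37 and 48 held none. Peak 5 upstream of Myod1 held no E-box of any kind in this window, and peak 9 held 3, none of the MyoD type. Over the 300 bp windows of all listed peaks, 78.3% held an E-box and 28.7% one of the MyoD type.

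Promoters of Myf5 and Myog, which had no listed peak, are shown for comparison as the 250 bases before the RefSeq start site (GRCm38.p6), each on the strand of its gene. They lie at chr10:107486135-107486384 on the minus strand and chr1:134289754-134290003 on the plus strand. RefSeq promoter sequences were matched for 2 of the 4 members, so Myod1 and Myf6 are named only.
Myf5 promoter: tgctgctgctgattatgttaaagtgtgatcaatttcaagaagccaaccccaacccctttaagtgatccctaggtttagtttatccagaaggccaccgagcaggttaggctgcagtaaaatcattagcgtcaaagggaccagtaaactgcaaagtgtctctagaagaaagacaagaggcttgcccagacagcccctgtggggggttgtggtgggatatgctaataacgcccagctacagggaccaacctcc
Myog promoter: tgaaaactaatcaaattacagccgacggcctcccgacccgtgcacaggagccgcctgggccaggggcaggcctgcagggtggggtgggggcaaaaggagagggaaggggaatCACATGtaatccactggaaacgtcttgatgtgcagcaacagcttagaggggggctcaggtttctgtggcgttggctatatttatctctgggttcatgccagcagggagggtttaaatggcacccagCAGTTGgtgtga
The Myog promoter held 2 E-boxes, 1 MEF3 site (TCAGGTT) and 1 paired homeodomain site (TAAT facing ATTA with a spacer of 3 bases). The Myf5 promoter held none of these. Over 32851 RefSeq promoters of the same length, 66.2% held an E-box, 3.49% a MEF3 site and 0.463% such a paired site. A match is a description of letters and not evidence of binding.

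Upstream of Myf5 and Myf6 the list held a dense and one-sided array of peaks. Of 96 peaks, 91 lay upstream of Myf6, 1 lay in its promoter window and 4 lay downstream. Myf5 had 92 upstream and 4 downstream. The 412 kb window held 233 peaks per Mb, against 50.3 on chromosome 10 and 44.9 over the genome, and peaks covered 44.6 kb of it (10.8%). More peaks in the window than Myf6 were found at 3.40% of 21000 protein-coding genes, whose median was 28 peaks, and at least as many upstream peaks at 0.267%. At least 90% of the peaks beside the gene were upstream in 11.3% of the 15512 genes with 10 or more such peaks. Among all genes the share was 8.34%. These shares describe where the genes stood and are not tests.

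**Figure D1:**
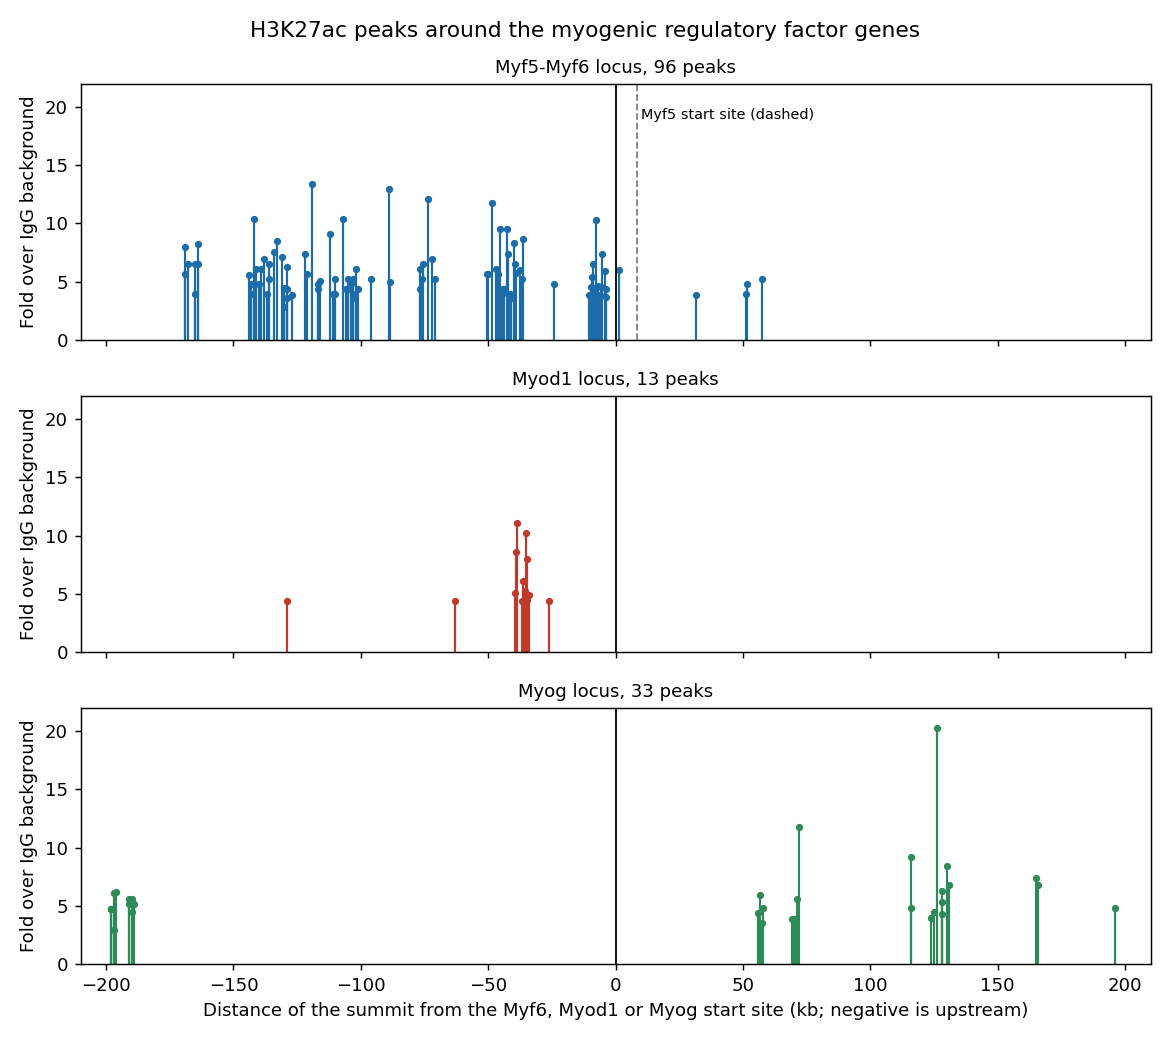
Fold over the IgG background of each peak (vertical axis) against the distance of its summit in kb from the start site of Myf6, Myod1 or Myog (horizontal axis, negative is upstream); each stem is 1 peak of 1 library. Upstream peaks fill the Myf5-Myf6 panel, the Myod1 panel has 1 group of tall stems between 33.6 and 39.4 kb upstream, and the Myog panel is empty from 189 kb upstream to 56.0 kb downstream.

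Single peaks at Myf5-Myf6 were not taller than elsewhere. Their median fold was 5.22 (quartiles 4.36 and 6.52), and the median over all peaks was also 5.22 (quartiles 4.36 and 6.51). They were wider, with a median of 207.5 bp against 163 bp and 9.38% of at least 1 kb against 4.74%. The highest fold in the window, 13.4, stood at the 66.6 percentile of the highest folds of all genes. IgG background ranged from 1.05 to 5.00 fragments per position and was at the lowest value of the list at 60.4% of these peaks, against 47.3% of all peaks.

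The upstream peaks fell into blocks, joined here when gaps were at most 5 kb. The block at Myf6 itself held 14 peaks from 1.47 kb inside the gene to 10.6 kb upstream, covered 4.61 kb and reached a fold of 10.3 (peak 13, 26 fragments). The next large block held 20 peaks between 36.0 and 50.6 kb upstream and covered 9.96 kb. Its tallest peak was peak 37, which spanned 3144 bp with a fold of 11.8 and 39 fragments over the summit (exact Poisson 95% interval 27.7 to 53.3). A block of 7 peaks lay 70.6 to 77.0 kb upstream and held peak 42 (fold 12.1, 27 fragments). Peak 48, at 89.0 kb, stood in a block of 2 with a fold of 13.0 and 29 fragments.

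The largest block held 40 peaks between 101 and 144 kb upstream and covered 21021 bp. It contained peak 67, the widest (3468 bp) and highest in fold (13.4) of the locus, with 30 fragments (interval 20.2 to 42.8) at 119 kb. Peak 77, at 133 kb, had the most fragments, 47, with a fold of 8.51 over an IgG background of 4.00. The last block inside the window held 7 peaks, 164 to 170 kb upstream, with a highest fold of 8.24. By contrast, the 4 downstream peaks were 81 to 164 bp wide with folds of 3.87 to 5.22 and 8 to 12 fragments. The counting intervals of the 5 peaks of highest fold overlapped, so their order by fragments is not resolved at this depth.

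**Figure D2:**
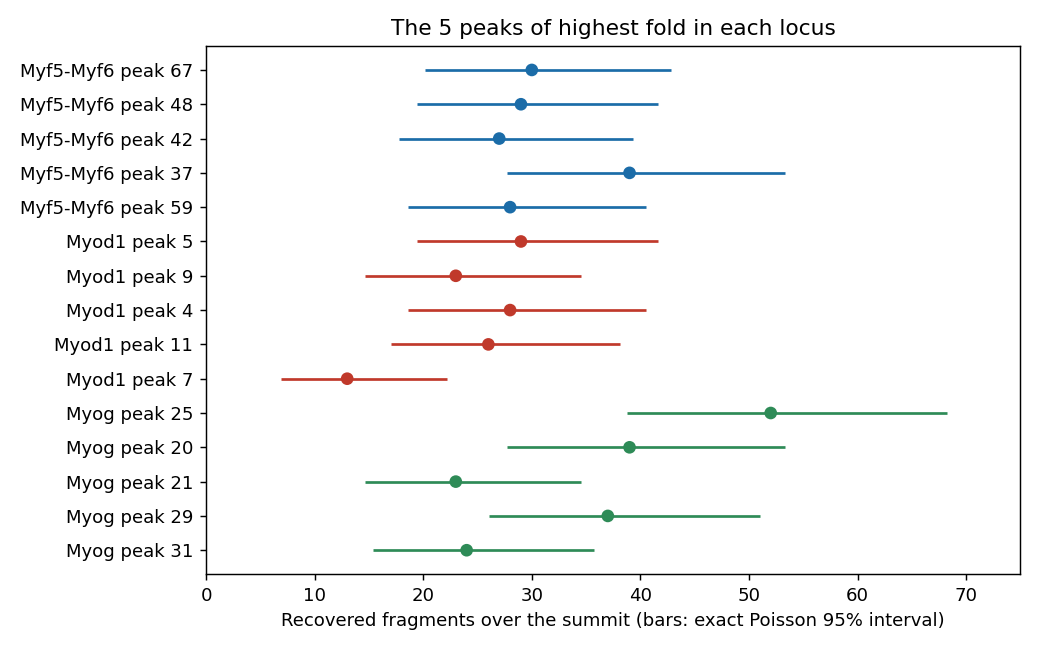
Recovered fragments over the summit (horizontal axis) of the 5 peaks of highest fold in each locus, with exact Poisson 95% intervals as bars. Intervals of the Myf5-Myf6 peaks overlap each other, and Myog peak 25, in Adipor1, has the most with 52 fragments.

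These upstream peaks lie in other genes. By curated RefSeq transcripts, summits were in introns at 78 of the 96 peaks, outside such transcripts at 17 and in an exon at 1. The intron host was Ptprq, a receptor-type phosphatase of inner ear hair cells, and most of the 96 summits, among them those of peaks 6 to 18 just upstream of Myf6, also lay within the predicted gene Gm36177. The start site of Ptprq was 225 kb upstream of Myf6, outside the window, and had 4 promoter peaks. Its body held 99 peaks, more than the 78 in the window, so the peaks in Ptprq continued past the window edge. Lin7a, on the other side, had no peak at its promoter or in its body. The nearest coding start site was that of Myf5 or Myf6 for 63 peaks (65.6%) and that of Ptprq for the remaining 33, and the target of a peak was not tested.

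Windows around the distances of described Myf5 enhancers were counted next. The window 5 to 8 kb upstream of Myf5, that of the early epaxial enhancer, held 1 peak, which is the peak in Myf6 (fold 5.97, 13 fragments), and 9.49% of genes had a peak in the same window. The window 50 to 60 kb upstream, that of the limb enhancer, held 12 peaks that covered 7.31 kb with a highest fold of 11.8, and 24.4% of genes had at least 1. At 140 to 150 kb, 9 peaks covered 6.78 kb (23.4% of genes). The windows at 15 to 20 kb and 100 to 120 kb held 7 and 15 peaks (15% and 35.3% of genes).

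Promoters of the members were described beside those of all protein-coding genes. A promoter was 2 kb either side of a start site, and 45.6% of protein-coding genes had a peak there. Of the 4 members, Myf6 had 1 and Myf5, Myod1 and Myog had none, as did 54.4% of genes. The Myf6 peak, chr10:107493253-107493362, lay 1.42 kb inside the gene in its last exon, with 13 fragments (interval 6.92 to 22.2). No member had a further peak in its body, where 33.2% of genes had one. The nearest summit to the start site was 1.42 kb away for Myf6, 7.17 kb for Myf5, 26046 bp for Myod1 and 56.1 kb for Myog, against a median of 6.00 kb over all genes. The nearest summit was over 20 kb away for 38.0% of genes and over 50 kb for 26%, so these distances are common in this list. A promoter with no listed peak may still carry the mark below the threshold of the list.

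By distance from the gene, the members differed in which bins were filled. All 4 had peaks within 200 kb, as did 89.7% of genes. Below 10 kb upstream, Myf6 had 12 peaks and Myf5 1 (18.4% of genes had any), and at 10 to 20 kb Myf5 had 13 and Myf6 1 (22.1%). At 20 to 50 kb upstream, Myf6 had 19, Myod1 11 and Myf5 10 (44.3%). At 50 to 100 kb, Myf5 had 20, Myf6 12 and Myod1 1 (54.4%), and at 100 to 150 kb Myf5 had 38, Myf6 40 and Myod1 1 (52.9%). Beyond 150 kb, Myf5 had 10, Myf6 7 and Myog 11 (52.2%). Myf5 and Myf6 share these peaks, so their bins differ only by the distance between the genes. Downstream, no member had a peak below 10 kb (27.8% of genes), and at 10 to 20 kb only Myf5 had 1 (24.9%). At 20 to 50 kb, Myf5 and Myf6 had 3 each (45.4%), at 50 to 100 kb Myog had 9 and Myf6 1 (54.5%), and at 100 to 150 kb (52.8%) and beyond (51.7%) only Myog had peaks, 10 and 3.

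**Figure D3:**
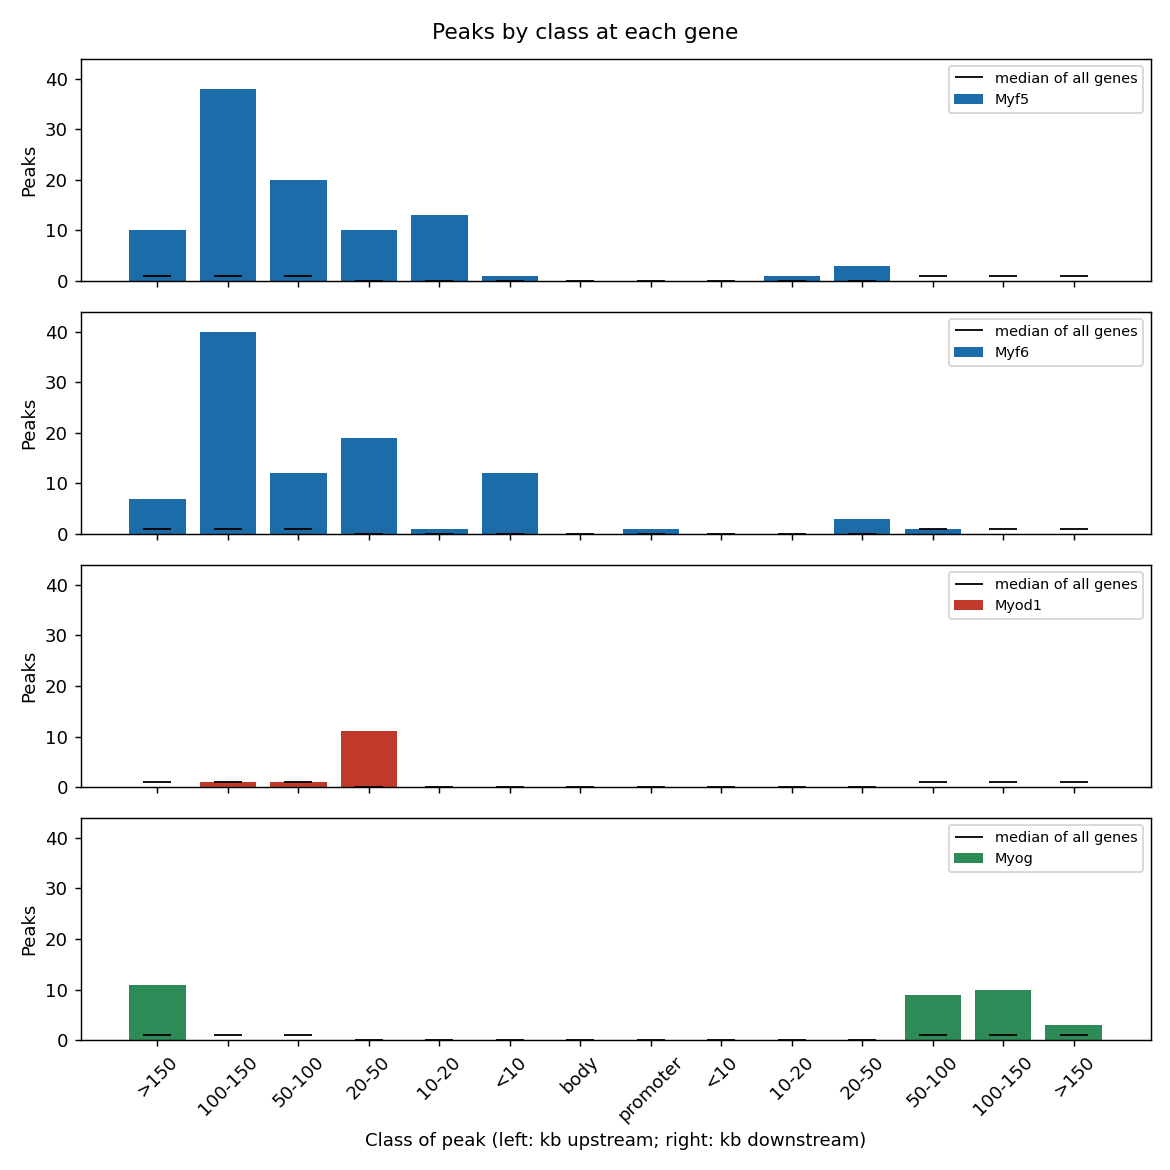
Number of peaks (vertical axis) in each class of position for the 4 genes, from over 150 kb upstream on the left to over 150 kb downstream on the right, with the median of all 21000 genes as a black dash. Myf5 has 38 and Myf6 40 peaks at 100 to 150 kb upstream, where the median gene has 1.

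Myod1 had 13 peaks, all of them upstream and none downstream within 200 kb. Of these, 10 formed a single block 33.6 to 39.4 kb upstream that covered 3.48 kb. Peak 5 (chr7:46337821-46338734) reached a fold of 11.1 with 29 fragments (interval 19.4 to 41.6), peak 9 a fold of 10.2 with 23 and peak 4 a fold of 8.59 with 28. The other 3 peaks were 78 to 98 bp wide with folds of 4.35 to 4.36, at 26046 bp (peak 13), 62.9 kb (peak 2) and 129 kb (peak 1). The block is intergenic, and Myod1 had the nearest coding start site for 12 of the 13 peaks.

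No peak lay in the window of the Myod1 distal regulatory region (4 to 7 kb upstream, 9.34% of genes) or of its core enhancer (18 to 26 kb upstream, 20.3% of genes). The weak peak 13 ended just outside the latter window. Downstream, the nearest summit was 225 kb away, which left 251 kb around Myod1 without a summit. The coding neighbors Abcc8, Ush1c, Otog and Kcnc1 had no promoter peak. By number of peaks Myod1 stood at the 27.5 percentile of genes (44.1 with 100 kb windows), and 31.6% of genes had no promoter peak and at least as many peaks in the window.

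Myog had 33 peaks, none of which lay near it. The 11 upstream peaks were 189 to 198 kb away, the 22 downstream peaks began at 56.0 kb, and 245 kb around Myog held no summit. Another gene had the nearest coding start site for all 33, and 12 (36.4%) were at promoters of other genes, against 21.9% of all peaks. The highest was Myog peak 25 at Adipor1, an adiponectin receptor, with a fold of 20.3 and 52 fragments (interval 38.8 to 68.2), followed by peak 20 at Tmem183a (fold 11.8, 39 fragments). Of 10 coding neighbors, Ppfia4, Tmem183a, Cyb5r1, Adipor1 and Klhl12 had a promoter peak and the other 5 did not. By number of peaks Myog stood at the 56.5 percentile (36.8 with 100 kb windows and 79.1 among the strongest 25% of peaks), and 16.2% of genes had no promoter peak and at least as many peaks.

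**Figure D4:**
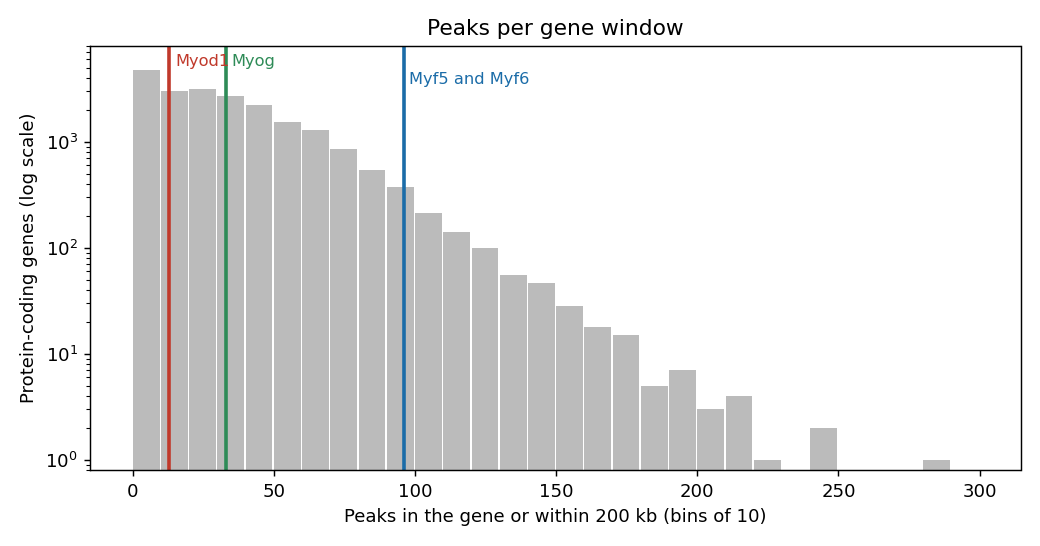
Protein-coding genes (vertical axis, log scale) by the number of peaks in the gene or within 200 kb (horizontal axis, bins of 10), with lines at the members. Myod1 (13) and Myog (33) lie in the bulk of genes, and Myf5 and Myf6 (96 each) lie in the upper tail.

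Stitching neighboring peaks at the distance used by the study, after leaving out those wholly within 1 kb of a start site, gave 20840 clusters ranked by fold times width. Of these, 864 (4.15%) lay above the point where a line with the average slope of the ranked curve touches it. Upstream of Myf6, the cluster from 70.6 to 144 kb joined 50 peaks over 73.2 kb and ranked 45, and the cluster from 24.0 to 50.6 kb joined 21 peaks and ranked 383. Both were above that point. The cluster at Myf6 itself ranked 2012. The Myod1 cluster of 11 peaks ranked 1928 and the highest Myog cluster 2316, all below it.

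Motifs were counted in 300 bp around each summit of the 142 peaks. A MyoD-type E-box was found in 29.6% (Wilson 95% interval 22.7 to 37.5), against 28.7% of all peaks. The share was 20.8% at Myf5-Myf6 (13.9 to 30.0), 38.5% at Myod1 (17.7 to 64.5) and 51.5% at Myog (35.2 to 67.5). These intervals treat windows as separate draws, but windows of neighboring summits can overlap, so they are too narrow for comparing loci. The reason for the difference between loci was not tested. The core CAGCTG was found in 6 of 96 windows at Myf5-Myf6 (6.25%, interval 2.90 to 13.0), in 1 of 13 at Myod1 (7.69%, 1.37 to 33.3) and in 12 of 33 at Myog (36.4%, 22.2 to 53.4). Over all member windows the share was 13.4% (8.74 to 20), against 14.6% of all windows. MEF3 sites were found in 7.75% of member windows (4.38 to 13.3) against 4.82%, and AP-1 sites (TGANTCA) in 9.15% (5.43 to 15) against 14.3%. MEF2 sites were found in 2 member windows (1.41%, against 0.717% of all peaks) and forkhead sites (GTAAACA) in 5 (3.52%, against 4.92%). Paired homeodomain sites (TAAT facing ATTA) with a spacer of 2 bases were in 1 (0.704%, against 0.649%). With a spacer of 3 bases they were in 2 (1.41%, against 0.663%). The cAMP response element TGACGTCA was in none, against 0.308% of all peaks.

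Genes that act with the members were described by the same list. Among 26 upstream factors and partners, 18 (69.2%) had a promoter peak, against 45.6% of genes. Pax3, whose locus carries the fusion and which acts upstream of Myf5 and Myod1, had the highest promoter fold (18.1, 46 fragments). High promoter folds were also found at the MEF2 factor Mef2d (10.4), the transcriptional cofactor Eya2 (9.96), Six4 (9.53) and Id3 (9.49), an inhibitor of E proteins. Of the 26, 20 (76.9%) had a peak in the gene or within 10 kb, against 63.2% of all genes. The 6 without one were Pax7, Lbx1, Tcf21, Msc, Meox1 and Meox2.

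Against 45.6% of all genes, a promoter peak was found at 4 of 20 target genes (20.0%). These were Dll1 (fold 6.98), a Notch ligand, Tnnt3 (6.51), a troponin of fast fibers, Cdkn1a (5.75), an inhibitor of the cell cycle, and Rb1 (5.22). No peak lay in or within 10 kb of 9 of the 20 targets, as of 7738 of the 21000 protein-coding genes. The 9 were Cdh15, Des, Ckm, Mymk, Mymx, Actc1, Myl1, Myh3 and Klhl41. Within 200 kb the median was 39.0 peaks for targets and 38.0 for upstream factors and partners, against 28.0 for all genes. Of 10 myogenic markers, 4 of them the members, Myf6 and Ncam1 had a promoter peak (20.0%, against 45.6% of all genes), and 5 (50.0%) had a peak in the gene or within 10 kb, against 63.2% of all genes. A promoter peak was found at 0 of 8 endothelial markers, 1 of 5 leukocyte markers (Cd68, fold 5.91) and 2 of 5 fibroblast markers (Col3a1, fold 13.4, and Pdgfra, 5.35), against the same 45.6% of all genes. Within 10 kb the counts were 6 of 8 endothelial, 3 of 5 leukocyte and 3 of 5 fibroblast markers, against 63.2% of all genes. The study's methods state that live tumor cells were sorted after digestion of the tumors, and the part of any other cells in the peaks was not tested.

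Genes whose peaks were spread most like those of the members were found by the summed absolute difference over 14 classes of position. For Myf5 they were Mylk2 (31), Cyp11b2 (32) and Rer1 (38), and for Myf6 Nhlh1 (35), Psd2 (37) and Tbc1d22a (41). For Myod1 they were Crygs (3), Tmem200b (4) and Zfp449 (4), and for Myog Enpp2 (9), Ros1 (10) and Cers4 (12). The differences are in numbers of peaks and grow with the number a gene has.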

How the data were processed

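The peak list of 1 H3K27ac CUT&RUN library of an MCP tumor, in mm10, was used, as identified by the library number in its peak names. The submitters' processing notes name BWA, SAMtools and MACS2, whereas the study's methods name bowtie and an early MACS against the matched IgG, and the list itself is in MACS2 format with a largest q of 0.047, so it was taken as a MACS2 list whose threshold is not given in the sources used here. The deposited list gives a score, a fold (a ratio to background), and −log10 p-values and −log10 q-values, all made by the authors' caller. Fragments were recovered by solving fold and p together for a whole number, with a scale of 0.885. In 3000 sampled peaks, 100% were whole within 0.01 (4.03% with the scale 3% off), and 97.2% of all peaks had 1 solution. The median was 13 fragments (quartiles 10 and 17). Intervals cover counting error only. Of the peak numbers, 584 were absent from the list, none within the member loci. Peaks were classified by overlap with RefSeq genes (31570 start sites), with Python 3.11.15, pandas 2.3.3, SciPy 1.17.1 and pysam 0.24.0. Fragment recovery was tested on simulated peaks, and motif counting on made sequences. Named were all members, their promoter and body peaks, the 5 highest, the nearest and the widest peaks, coding neighbors, up to 6 list genes with promoter peaks and those with none within 10 kb, and 3 genes of like pattern. Some list genes that the rule names are not reported here. Members and lists were chosen with earlier results of these data known. Alternatives included the strongest 25% of peaks, −log10 q of at least 5, and other windows.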

Additional observations from a re-analysis of the deposited data

How the results depend on the processing

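No paired analysis was possible because the list comes from 1 library. Among the 35 alternatives, 19 kept their value within the set tolerance and 16 did not, mostly because they kept fewer peaks by construction. The tolerance was wide, so that a chromosome-scaled Myog count of 23.1 against 33 and a cluster rank of 32 against 45 passed as kept. With the strongest 25% of peaks, the Myf5-Myf6, Myod1 and Myog loci held 27, 4 and 15 peaks (95.6, 34.2 and 79.1 percentiles of genes). A promoter peak was then found at 0 members and 6186 genes (29.5%). With −log10 q of at least 5 the loci held 50, 6 and 20 peaks (96.7, 28.1 and 65.9 percentiles). With 100 kb windows Myf5-Myf6 held 49 peaks (92.6 percentile) and Myog 9. In these windows Myod1 moved from the 27.5 to the 44.1 percentile of genes and Myog from the 56.5 to the 36.8 (79.1 with the strongest 25%). Scaled to the median gene of each chromosome, Myf5-Myf6, Myod1 and Myog stood at the 98.0, 39.3 and 39.0 percentiles. Myod1 and Myog thus no longer differed in this measure. Merging peaks within 500 bp left 28, 5 and 14 and took Myf5-Myf6 from the 96.5 to the 81.9 percentile of genes, so part of its high count is peaks close together. With 1 kb promoters 0 members had a promoter peak, and 43.5% of genes had one. The cluster ranked 45 at Myf5-Myf6 ranked 128 by number of peaks and 32 and 33 under the other alternatives. The share of member peaks with a MyoD-type E-box was 11.3% in 100 bp windows, against 12.1% of all peaks. Start sites of GENCODE, an alternative chosen after seeing the data, left 1 member with a promoter peak, beside 48.2% of the 20499 genes matched. With a median of 13 fragments per summit, the depth limits the order of single peaks, and an unlisted region may carry the mark.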
